A study of Mus musculus with 6 samples.

Results

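The contrast described is that of early night with early day in wild-type mouse liver: 1 array of RNA taken at circadian time 14 (CT14) set against 1 array taken at circadian time 2 (CT02). Circadian time counts hours in constant conditions, beginning at subjective dawn, and CT02 falls early in the day and CT14 early in the night, when mice are active. The arrays were chosen by their titles and are 2 of the 6 in the series, and every gene that a probe set names by a single symbol was read on them (8251 genes). Of these, 4844 had a mean level at or above the floor of 606 scaled units and were kept, and 3407 did not. The wild-type mice were males of a C57BL/6 background, 8 to 10 weeks old, and total liver RNA was measured with no treatment named. The other 4 arrays came from male Clock mutant and Cry-deficient mice of the same ages and times, the Cry-deficient CT02 sample being given as lacking both Cry1 and Cry2; they entered the scaling, the floor and the filter, and serve below as a range beside which wild-type values are set. On the light schedule, the feeding state and any pooling of mice the sources used here say nothing.

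The circadian clock of liver cells is a feedback loop of transcription. The products of Clock and Arntl (BMAL1) pair and switch on genes that carry E-boxes, among them the Per and Cry genes, whose proteins return to block the pair, and the genes of the Rev-erb and ROR receptors, which repress and activate Arntl. Many outputs of liver follow the clock or the meals it times, including lipid synthesis, bile acid synthesis and protein folding in the endoplasmic reticulum (ER).

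With 1 array a side there is no replicate error, so sizes are given without a test and no difference can be set against the spread between mice. Precision is limited by the small number of arrays, and single genes are given with other readings of them where there are any: a second probe set, or the 4 mutant arrays. The wild-type arrays were alike in overall level: their mean deposited intensities were 2325 and 2382 at CT02 and CT14, and 5.10% and 5.24% of the kept genes lay below the floor. The ratio of 3' to 5' control probes was 0.840 and 0.928 for Actb and 0.696 and 0.716 for Gapdh. The other control pairs differed more than 3-fold between the arrays, and in opposite directions. For Pcx the ratio was 19.7 and 3.96, where the 5' probe read 788 and 3858. For Tfrc it was 1.24 and 4.32, where the 5' probe read 725 and 329, the second value lying below the floor. The Pcx ratio was also higher at CT02 on the Clock mutant (17.65 and 6.575) and Cry-deficient arrays (25.26 and 7.143). It thus went with time in every genotype and cannot be told apart from the contrast. The Tfrc ratio was likewise higher at CT14 on the Clock mutant (-0.353 and 1.76) and Cry-deficient arrays (1.30 and 204). Its 5' probe was below the floor on all of these. The part of these differences in the values below was not tested. A ratio against a value below the floor is a lower bound, written as "at least".

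At CT14, 120 of the 4844 kept genes were at least 2-fold higher than at CT02 (2.48%) and 101 were at least 2-fold lower (2.09%), 4.56% in all. In 33 of the higher and 30 of the lower genes the ratio was a lower bound. The middle of the distribution was narrow: the median log2 ratio was 0 and the quartiles were -0.20 and 0.19, with 2328 genes above 0 and 2421 below. More genes were far higher than far lower, 29 against 18 at 3-fold and 13 against 5 at 4-fold. The share 2-fold apart was 6.75% among the dimmest 1615 genes and 2.29% among the brightest 1615, where the quartiles were -0.13 and 0.13. The threshold cut through a continuum: just inside it lay Actg1, a cytoplasmic actin (10265 at CT02 and 20549 at CT14), and Atf5 (10730 and 5363), and just outside it Bnip3, a mitophagy receptor (2503 and 4993). Of the 221 genes past 2-fold, 69 belonged to a gene list used here and 152 to none.

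**Figure D1:**
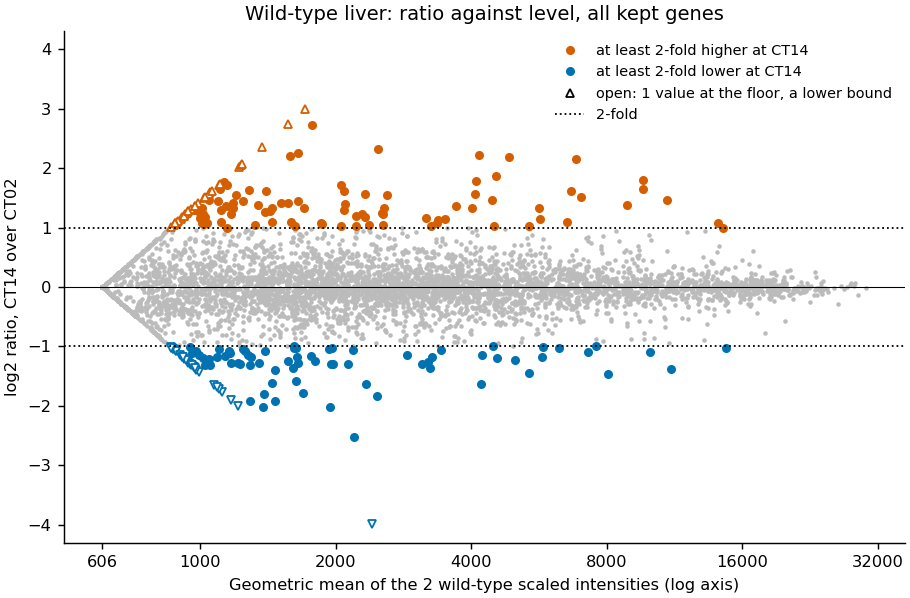
The log2 ratio of CT14 over CT02 in wild-type liver (y axis) against the geometric mean of both wild-type levels (x axis, scaled intensity, log axis) for the 4844 kept genes; open triangles have 1 value at the floor of 606 and are lower bounds, and dotted lines mark 2-fold. The 120 higher genes (orange) and the 101 lower genes (blue) lie mostly at low levels, and the scatter narrows to quartiles of -0.13 and 0.13 among the brightest 1615 genes.

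Clock genes that mark the early night stood higher on the CT14 array. Per2, whose protein holds back the CLOCK:BMAL1 pair, read 251 at CT02 and 4058 at CT14, at least 6.69-fold higher. Bhlhe40 (DEC1), which competes for E-boxes, read 1111 and 5564, a 5.01-fold difference. Tef, an activator that binds D-boxes, read 2543 and 6350 (log2 ratio 1.32). Arntl, which peaks opposite to Per2, read 2102 and 865, 2.43-fold lower at CT14. All 4 differed at least 2-fold, each in the direction known for early night against early day. They were given beforehand as markers of this contrast, so their directions are no test of it. None of them was 2-fold apart on the Clock mutant arrays (Per2 651 and 778, Bhlhe40 2133 and 3090, Tef 2939 and 3552, Arntl 2060 and 1348) or on the Cry-deficient arrays (Per2 3071 and 2665, Bhlhe40 8924 and 4652, Tef 7680 and 6790, Arntl 1459 and 1097).

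Among the remaining repressors and night-side genes, only Usp2 was past 2-fold. Usp2, a deubiquitinase with clock proteins among its substrates, read 733 and 3404 (4.64-fold), and its second probe set 373 and 1098, a log2 ratio of at least 0.86. Cry2, a partner of the PER proteins, read 1215 and 2256 (1.86-fold). Its probe set read 1185 and 1344 on the Cry-deficient arrays, though the CT02 sample there was given as lacking Cry2. The wild-type CT02 value was thus near the reading without the gene, which limits this ratio. Nr1d2 (Rev-erb beta) read 916 and 1366 and Nr1d1 (Rev-erb alpha) 4101 and 3007, so the pair of Rev-erb genes lay on opposite sides of 0, at log2 ratios of 0.58 and -0.45. Per3 was level at 4416 and 4340. Dbp, another D-box activator, was below the floor at CT02 and read 750 at CT14. Per1 read -86 and 526, under the floor on both arrays, and was not kept. Of the 9 kept genes of this list 7 were higher and 2 lower, with a median log2 ratio of 0.89 against 0 over all kept genes. At least 2-fold higher were 4 of them, the markers Per2, Bhlhe40 and Tef included, beside 2.48% of all kept genes. These markers were given beforehand and enter the median too, so neither figure is a test of the contrast. On the Clock mutant arrays the median was 0.26 and on the Cry-deficient arrays -0.18.

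On the other limb of the loop, Rora, whose product activates Arntl, read 3058 and 1247, 2.45-fold lower at CT14. Its second probe set was under the floor on both arrays, and the mean over both probe sets was a log2 ratio of -0.65. Clock read 2430 and 1552, a 1.57-fold lower level. Nfil3 (E4BP4), a repressor at D-boxes, read 2729 and 2148 on its brightest probe set but 2995 and 953 on the other, log2 ratios of -0.35 and -1.65. The name of the brighter one marks a family of like sequences. Cry1, whose product is a repressor of the loop although it was placed in this list, read 1833 and 2723. It was the only kept gene of the list that was higher (log2 ratio 0.57), also on a probe set of a sequence family. Npas2, a relative of Clock, was under the floor. The 5 kept genes had a median of -0.65, reaching -1.28 once probe sets named with a letter were left out, and 0.57 where a filter at the 75th percentile left Cry1 alone. The wild-type median of -0.65 stood beside -0.61 on the Clock mutant and 0.30 on the Cry-deficient arrays. That 0.30 is the ratio of Cry1, whose probe set read 3845 and 4718 there, though the CT02 sample was given as lacking Cry1. What it reads in those mice was not tested, so the Cry-deficient median is not a like comparison.

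**Figure D2:**
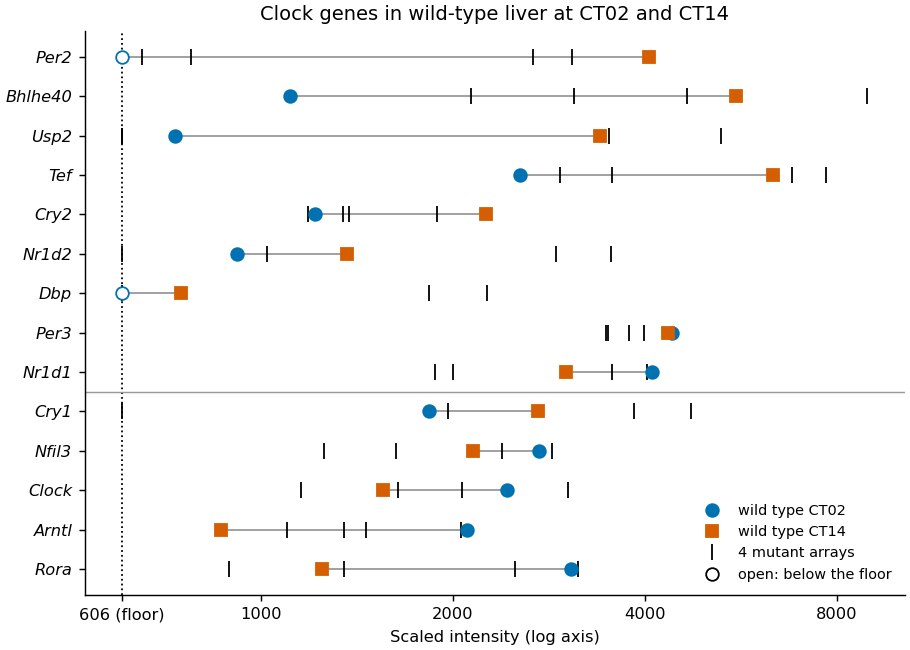
Scaled intensity (x axis, log axis) of the 14 kept clock genes in wild-type liver at CT02 (blue circles) and CT14 (orange squares), with the 4 mutant arrays as black ticks; open symbols lie below the floor of 606 (dotted line). The list of repressors and evening genes is above the grey line and that of activators and morning genes below it. The lower list also holds the repressors Cry1 and Nfil3. Per2, Bhlhe40, Usp2 and Tef have CT14 to the right by at least 2-fold, and Arntl and Rora to the left.

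Promoters show where the letters of clock elements lie in these genes. RefSeq promoters (GRCm38.p6, 250 bases before to 50 after the start) were at hand for 3922 of the kept genes. The E-box CACGTG, read on both strands, was in the promoter of 12.2% of these. Among those at least 2-fold higher at CT14, 101 had a promoter at hand and 23 of them the E-box (22.8%); among those at least 2-fold lower, 79 had a promoter and 8 the E-box (10.1%). No test was made of these shares, and base composition was not compared between the groups. Per2 and Bhlhe40 had no entry among these promoters. Of the clock genes past 2-fold with one, Tef alone held an E-box, at each of its starts, and Cry1, which was less than 2-fold apart, held one too. The 3 stretches are shown with the E-box in capitals, at chr15:81802522-81802575 and chr15:81811252-81811305 (plus strand) and chr10:85185085-85185138 (minus strand).
Tef, first start: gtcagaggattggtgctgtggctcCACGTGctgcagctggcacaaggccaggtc
Tef, second start: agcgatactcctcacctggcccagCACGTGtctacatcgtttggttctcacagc
Cry1: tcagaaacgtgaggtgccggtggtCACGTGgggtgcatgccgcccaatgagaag
The ROR element TAGGTCA was in 2.65% of all these promoters and in those of Arntl and Nfil3, both lower at CT14. A match is a run of letters and not a measured binding site.

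Genes of the ER were higher at CT14 as a group, beyond the few large ratios. The unfolded protein response raises chaperones, disulfide isomerases and degradation factors when proteins fold poorly in the ER. Of its 22 kept genes 20 were higher and 2 lower, against 48.1% higher among all kept genes, with a median log2 ratio of 0.55. Only 4 were past 2-fold, beside 2.48% of all kept genes at least 2-fold higher: Ddit3 (CHOP), Creld2, Dnajb11 and Dnajb9. In 13 of the 22 (59.1%) the wild-type CT14 value was the highest of all 6 arrays, which held for 14.3% of all kept genes. A list that is higher at CT14 than at CT02 reaches the top of the arrays more readily. Such shares, here and in the lists below, are thus no separate finding. On the Clock mutant arrays the median for the same 22 genes was -0.15 and on the Cry-deficient arrays 0.17.

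Among ER chaperones and their helpers, Dnajb11, a co-chaperone of BiP, read 1649 at CT02 and 3898 at CT14. Dnajb9 read 4455 and 9532, and its second probe set 1423 and 3986, so both were past 2-fold. Manf, a secreted factor held in the ER, read 9560 and 18343 (log2 ratio 0.94). Dnajc3, which restrains the kinase PERK, was higher on each of its 3 probe sets above the floor, at log2 ratios of 0.84, 0.74 and 0.70. Hspa5 (BiP) and Hsp90b1 (GRP94), the main chaperones of the ER, differed by only 0.29 and 0.24. Pdia4, a disulfide isomerase, read 5428 and 9562 (0.82), Pdia6 7950 and 11069 (0.48) and Pdia3 11795 and 15002 (0.35), while P4hb read 5721 and 5761. The size of the difference thus varied within the group, from Creld2 (3230 and 14476) to genes that were level.

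The factors that carry the response differed among themselves. Ddit3 was below the floor at CT02 and read 3092 at CT14, at least 5.10-fold higher. Atf4, a factor translated under stress, read 6218 and 9671 (log2 ratio 0.64), Atf6 1218 and 1537 (0.34) and Xbp1 12247 and 14766 (0.27). For Atf4 both mutants had like ratios, 0.52 and 0.50. Among genes of ER-associated degradation, Herpud1 read 11462 and 17264 (0.59) and Sel1l 2494 and 3875 (0.64), with 1.07 on its second probe set. Edem1, which marks misfolded glycoproteins, went the other way, 2106 and 1407 (-0.58). Asns, an amino acid response gene, was level at 1823 and 1781.

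The ER stress element, CCAAT and CCACG 9 bases apart, was the rarest motif searched, in the promoters of 10 of 3922 kept genes (0.255%). Of these 10, 6 belonged to the 19 genes of the unfolded protein response with a promoter at hand: Canx, Creld2, Dnajc3, Hsp90b1, Hspa5 and Pdia6. Since the list holds known targets of this element, its frequency there is no finding about time. Within the list, the 6 genes with the element had a median log2 ratio of 0.65 and the 13 without it 0.59. The elements are shown in capitals for 5 genes, because their ratios differ widely (2.16, 0.84, 0.82, 0.48 and 0.29) around the same 10 fixed letters. They lie at chr15:88819496-88819562, chr14:118937803-118937869, chr11:50325776-50325842 (minus strand), chr12:17266467-17266533 and chr2:34772001-34772067, and Creld2 holds the element in the reverse orientation.
Creld2: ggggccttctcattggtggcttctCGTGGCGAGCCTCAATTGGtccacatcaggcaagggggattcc
Dnajc3: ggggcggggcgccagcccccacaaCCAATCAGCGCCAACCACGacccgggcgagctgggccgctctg
Canx: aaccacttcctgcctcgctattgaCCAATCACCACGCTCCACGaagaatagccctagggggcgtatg
Pdia6: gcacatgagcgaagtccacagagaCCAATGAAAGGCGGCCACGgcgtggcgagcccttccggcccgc
Hspa5: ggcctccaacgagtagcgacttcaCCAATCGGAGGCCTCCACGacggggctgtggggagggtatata

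The secretory route past the chaperones showed the same direction at smaller size. Of 38 kept genes of translocation and of ER to Golgi transport 33 were higher and 5 lower, with a median of 0.24. Only 1 gene was past 2-fold, beside a share of 2.48% at least 2-fold higher over all kept genes. That gene was Copg1, a subunit of the COPI coat, at 3152 and 6439, with 0.40 on its second probe set. Tmed9, a cargo receptor, read 3824 and 7551 (0.98), Sec23b, of the COPII coat, 5847 and 10550 (0.85), and Sec61a1, the channel of the translocon, 9969 and 12825 (0.36). In 16 of the 38 (42.1%) the wild-type CT14 value was the highest of the 6 arrays, against 14.3% of all kept genes. Of 26 genes of glycosylation 19 were higher, with a median of only 0.10. Gmppb, which makes GDP-mannose, stood alone there at 756 and 3594. The next were Mogs, the glucosidase that trims the first glucose (2687 and 4333), and Rpn1, a ribophorin (4661 and 6931).

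Cytosolic chaperones were also higher at CT14. Of 28 kept heat shock and co-chaperone genes 25 were higher and 3 lower. At least 2-fold higher were 3 of them, beside 2.48% of all kept genes. The list median was 0.30, against -0.12 on the Clock mutant and -0.09 on the Cry-deficient arrays. Hspa1b, the inducible HSP70, read 2276 and 10370, above the range of the mutant arrays (1263 to 3609). Hsph1, an exchange factor of HSP70, read 5491 and 14330 (2.61-fold). Dnajb1, a partner of HSP70, was below the floor at CT02 and read 1396 at CT14, at least 2.30-fold higher. Bag3, an HSP70 co-chaperone, read 3224 and 5137 (0.67) and 1275 and 3542 on its other probe set (1.47). Stip1, which links HSP70 to HSP90, read 3057 and 5573 (0.87), and Hspa8, the constitutive HSP70, 13730 and 20859 (0.60). The subunits of the CCT chaperonin lay closer to 0: Cct3, at 0.36, was the highest of them, and Cct2 the only one lower, at 795 and 564.

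The mitochondrial pair Hspd1 (HSP60) and Hspe1 (HSP10) was nearly level, at log2 ratios of 0.04 and 0.16. These neighbours are read from 1 shared promoter that holds a heat shock element, here 3 alternating units of GAA and TTC, 2 bases apart. Such an element was found in 4 of the 21 genes of the list with a promoter (Chordc1, Hspd1, Hspe1 and Hsph1) and in 24 of all 3922 genes (0.612%). The 4 genes had a median ratio of 0.37 and the other 17 one of 0.36. The stretch at chr1:55088035-55088095 is shown on the strand of Hspe1 because it stands beside level genes, with the element in capitals.
Hspe1: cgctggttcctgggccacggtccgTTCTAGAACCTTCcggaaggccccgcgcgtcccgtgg

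**Figure D3:**
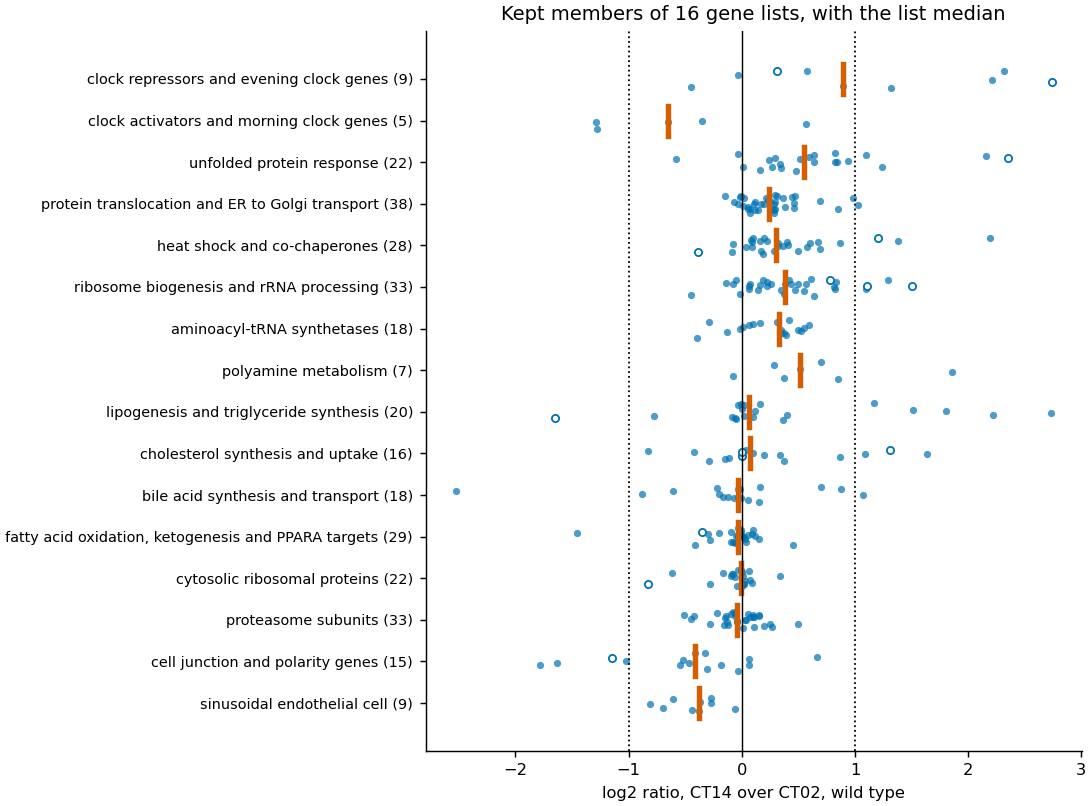
The log2 ratio of CT14 over CT02 in wild-type liver (x axis) for the kept members of 16 gene lists (y axis, number of kept genes in brackets); each point is a gene, open points are lower bounds, orange bars are list medians and dotted lines mark 2-fold. Most members of the unfolded protein response, heat shock and ribosome biogenesis lists lie right of 0 (20 of 22, 25 of 28 and 28 of 33), and all 9 sinusoidal endothelial genes lie left of it.

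Genes that build ribosomes were higher at CT14, while those of the ribosome itself were not. Of 33 kept genes of ribosome biogenesis 28 were higher and 5 lower, with a median of 0.38. At least 2-fold higher were 4 of them, beside 2.48% of all kept genes. Nop56, a core protein of box C/D particles, was below the floor at CT02 and read 1709 at CT14, at least 2.82-fold higher. Tsr1, an assembly factor of the small subunit, read 1333 and 3268 (2.45-fold), beside 1418 to 1768 on the mutant arrays. Gnl3 (nucleostemin) was at least 2.16-fold higher and Wdr43 2.14-fold, with at least 0.93 on its second probe set. Ubtf, a factor of RNA polymerase I, read 1207 and 2136 (0.82), whereas Polr1a and Polr1b, its largest subunits, were level at 0.07 and 0.06. In 16 of the 33 genes (48.5%) the wild-type CT14 value was the highest of the 6 arrays, against 14.3% of all kept genes. The 22 kept cytosolic ribosomal protein genes had a median of -0.01, with 9 higher and 13 lower. None was past 2-fold, beside 4.56% of all kept genes, so few or none would be looked for among 22.

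Among genes that feed translation, those of tRNA synthetases and polyamines were mostly higher, while translation factors lay closer to level. Of 18 tRNA synthetase genes 14 were higher and 4 lower, with a median of 0.33. None was past 2-fold, beside 4.56% of all kept genes. The highest were Aimp2, a scaffold of the synthetase complex, at 0.59, and Nars at 0.55. Of 7 polyamine genes 6 were higher, with a median of 0.51. Srm (spermidine synthase) read 2385 and 8628, above the highest mutant value of 4043, and Odc1, which makes putrescine, 2140 and 3865. Of 30 translation factor genes 18 were higher and 11 lower, with a median of 0.07. Only 1 of these factors was past 2-fold, beside 2.48% of all kept genes at least 2-fold higher. It was Eif2b2, a subunit of the eIF2 exchange factor. Eif2b2 was below the floor at CT02 and read 1497 at CT14, at least 2.47-fold higher. Eif4a1, the helicase of the cap complex, read 5726 and 9550.

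Lipid genes split within each list, so their medians were near 0 while single enzymes were far apart. Of 20 kept genes of fatty acid and triglyceride synthesis 12 were higher and 8 lower, with a median of 0.06. Past 2-fold were 5 and 1 of them, beside 2.48% and 2.09% of all kept genes. Lpin1 read 688 and 4546 (log2 ratio 2.73) and Fasn 5148 and 17963 (1.80). Elovl6, which extends palmitate, was higher on both of its probe sets, at log2 ratios of 2.22 and 2.54. Pklr (liver pyruvate kinase), a member of the glycolysis list and a target of the carbohydrate-responsive factor ChREBP, was as well, at 1.17 and 1.41. Mid1ip1, a relative of Thrsp that stimulates acetyl-CoA carboxylase, outside the list, read 6558 and 18037, and 1206 and 4648 on its second probe set. Mlx, the partner of ChREBP, was also outside the lists and read 1623 and 4055; both were singled out after their values were seen. Scd1 and Fads1, desaturases, were level at -0.06 and -0.09, and Elovl5 was lower, 23526 and 13679 (-0.78). The member past 2-fold on the lower side was Elovl3, which read 1905 and 257, at least 3.14-fold lower. G0s2, an inhibitor of the lipase ATGL, read 3809 and 11713.

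Sterol and bile acid genes also went both ways. Of 16 cholesterol genes 9 were higher and 5 lower, with 2 under the floor on both arrays. Cyp51, which demethylates lanosterol, read 1088 and 2321 (2.13-fold), and Mvd was below the floor at CT02 and read 1505 at CT14, while Hmgcs1, near the start of the pathway, read 4908 and 2766 (-0.83). Lss, which makes lanosterol, read 628 and 1950, and both its ratio and that of Mvd were under 2-fold with a floor at the 60th percentile. Cyp7a1, which commits cholesterol to bile acids, read 1282 and 2692 (2.10-fold). Nr0b2 (SHP), which represses Cyp7a1, was lower, 5260 and 913, the CT14 value lying below the mutant arrays (1310 to 5217). Cyp8b1, which sets the ratio of bile acids, read 10262 and 5584 (-0.88), and Nr1h4 (FXR), the bile acid receptor, 4031 and 7429 (0.88). The median of the 18 bile acid genes was -0.03, with 6 higher and 12 lower.

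Genes of fatty acid oxidation were mostly a little lower. Of 29 kept members 9 were higher and 20 lower, yet the median was -0.03. Only 1 was past 2-fold, beside 2.09% of all kept genes at least 2-fold lower. It was Cyp4a14, an omega hydroxylase, at 13331 and 4844. Its relative Cyp4a10 read 17144 and 12874 (-0.41). Plin2, a coat protein of lipid droplets, was the highest at 8249 and 11280 (0.45).

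Igfbp1 and Fkbp5, both in the list of glucocorticoid-responsive genes, held the largest ratios in either direction, each as a lower bound. Igfbp1, a binding protein of insulin-like growth factors that rises in fasting, read 9554 at CT02 and 188 at CT14, at least 15.76-fold lower. Its second probe set was under the floor on both arrays, and the name of the first marks a sequence family. Fkbp5, a co-chaperone of the glucocorticoid receptor, was below the floor at CT02 and read 4818 at CT14, at least 7.947-fold higher, above the mutant range of 230 to 2635. Nampt, which makes NAD from nicotinamide, was likewise at least 4.14-fold higher (458 and 2513). Other glucocorticoid targets were lower: Sgk1, a kinase, read 4156 and 2206 and Klf9 7093 and 3759, log2 ratios of -0.91 and -0.92. Pck1, also a member, was higher (6546 and 11139), and Pdk4 was lower, 770 at CT02 and below the floor at CT14. The list of 17 had 9 higher and 8 lower, with a median of 0.05, so the large ratios are of single genes.
The promoter of Igfbp1 (chr11:7197655-7197709, plus strand) held the letters CAAAACA of the insulin response element, found in 5.02% of the promoters read, and is shown with them in capitals.
Igfbp1: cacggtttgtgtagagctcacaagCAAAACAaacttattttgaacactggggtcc

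Glucose output genes also went both ways. Slc37a4, the transporter of glucose 6-phosphate into the ER, read 8770 and 16641 (0.92), Gbe1, the glycogen branching enzyme, 1165 and 2266 (0.96) and Pck1 6546 and 11139 (0.77). G6pc, the glucose 6-phosphatase, was lower, 24215 and 16309 (-0.57). The 12 kept genes had 5 higher, 7 lower and none past 2-fold, beside 4.56% of all kept genes. Among 30 genes of the urea cycle and amino acid breakdown, Gldc, of the glycine cleavage system, read 10609 and 4977 (2.13-fold lower) and Hal, the histidine ammonia-lyase, 15299 and 7921, while the median was -0.01.

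Cell junction genes were the pathway list with the lowest median after the morning clock genes. Of 15 kept members 3 were higher and 12 lower. At least 2-fold lower were 4 of them, beside 2.09% of all kept genes. The list median was -0.41, against 0.01 on the Clock mutant and 0.31 on the Cry-deficient arrays. Cldn1, a tight junction protein, read 7415 and 2388, while its other probe set gave 1719 and 317. Smagp, a membrane adhesion protein, read 3139 and 913. Gja1 (connexin 43) was at least 2.21-fold lower at CT14, where it was below the floor, and Ceacam1, a bile duct membrane protein, 2.03-fold lower, with -0.82 on its second probe set. Gja1 and Ceacam1 were under 2-fold in the mean over all probe sets. Tjp1 (ZO-1) read 2062 and 1410 and Ocln (occludin) 1296 and 973, both CT14 values below every mutant array. Gjb1 and Gjb2, the main connexins of hepatocytes, were close to level, at -0.18 and -0.03.

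Markers of sinusoidal endothelial cells, which line the liver's capillaries, were lower at CT14 in all 9 kept genes, with a median of -0.38. None of these markers was past 2-fold, beside 4.56% of all kept genes. Their median was the same, -0.38, on the Cry-deficient arrays and 0.02 on the Clock mutant arrays. Kdr, a VEGF receptor, read 1481 and 846, Eng, a TGF-beta co-receptor, 7138 and 4404, and Tek, the angiopoietin receptor, 979 and 640. The summed level of the 9 genes was 18984 at CT02 and 13552 at CT14, and 16760 to 24379 on the mutant arrays. Pecam1 and Lyve1, defining markers of these cells, were under the floor on both wild-type arrays, and Vegfa, a ligand of Kdr named after its values were seen, read 2291 and 4993. Matrix genes, many made by the same vessels and by stellate cells, leaned the same way, with 21 of 29 lower and a median of -0.10, beside -0.25 on the Clock mutant and 0 on the Cry-deficient arrays, led by Col4a1 (1894 and 970) and Sdc2 (6378 and 3309). In bulk RNA fewer cells of a type and less RNA per cell cannot be told apart.

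Other cell markers differed less, and the tissue was liver by its markers. All 10 hepatocyte markers on the array were kept; their median was -0.11 and their summed level 131097 at CT02 and 125981 at CT14. Alb read 10430 and 9238 and Ttr 19741 and 17208. Apoa1 was dim on its probe set, 1107 and 63. The 13 Kupffer cell genes had a median of -0.02 with none past 2-fold, beside 4.56% of all kept genes. The 6 stellate cell genes had a median of -0.17. Of 8 exocrine pancreas genes 6 were lower, with Pla2g1b at 2831 and 755 and summed levels of 19547 and 16188. Pvalb, of the 4 kept skeletal muscle genes, was higher at 1516 and 4454, and under 2-fold in the mean over its probe sets, whereas Ckm, muscle creatine kinase, was lower at 1604 and 919. The part of these cells in the differences above was not tested.

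Growth and signalling genes added single large ratios. Ccnd1 (cyclin D1) read 561 and 2452 on its brightest probe set, at least 4.04-fold higher, but 1266 and 2097 on the other (0.73). Slc20a1, a phosphate carrier, was below the floor at CT02 and read 2530 at CT14. Hes6, a transcriptional cofactor, read 5434 and 17085, the CT14 value above the mutant range of 4833 to 12539. Socs2, a brake on growth hormone signalling, read 764 and 1785, and Onecut1 (HNF6) 637 and 1537. Both were under 2-fold with a floor at the 60th percentile. Erbb3, a receptor tyrosine kinase, was lower, 8851 and 3259, the CT14 value beneath the mutant range of 7495 to 9117. Mtor was lower as well, 2586 and 743, with -0.72 on its second probe set. Btg1, an antiproliferative gene, read 2554 and 1062, and Ccng2, a FOXO target, 2635 and 1179.

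Detoxification genes were mostly near 0, with exceptions on both sides. Of 27 kept cytochrome P450 genes 8 were higher and 18 lower, with a median of -0.07. Past 2-fold were 1 higher and 1 lower, beside 2.48% and 2.09% of all kept genes. They were Cyp3a16 (586 and 2020, at least 3.33-fold higher) and Cyp4a14, given above. Among 44 conjugation and aldehyde genes 19 were higher and 25 lower, with a median of -0.04. Gsta2, a glutathione transferase, read 7634 and 3267 (2.34-fold lower) and Mgst3 1940 and 864 (2.25-fold lower). Gclc, which starts glutathione synthesis, read 10762 and 5723 (-0.91). Alas1, the first enzyme of heme synthesis in liver, read 8836 and 13357 (0.60) and Fech, the last, 1448 and 2928 (2.02-fold). Genes of large complexes lay close to 0. The 53 genes of oxidative phosphorylation had a median of 0.04, the lowest at -0.23 and the highest at 0.46, and the 33 proteasome genes one of -0.04.

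Second probe sets gave another reading of the same RNA on the same arrays. Of 21 genes with both probe sets above the floor and the brightest 2-fold apart, 15 had the second in the same direction (71.4%) and 7 had it past 2-fold too. These were Elovl6, Dnajb9, Mid1ip1, Pklr and Rangap1 on the higher side and Ndrg1 and Nfib on the lower side. The other 6 had a second ratio on the opposite side of 0, the farthest being Fhl1, a LIM domain protein, at 1.41 and -0.33. Among 44 genes between 1.5-fold and 2-fold apart 70.5% shared the direction, and among 522 genes nearer to 0 the share was 62.6%.

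**Figure D4:**
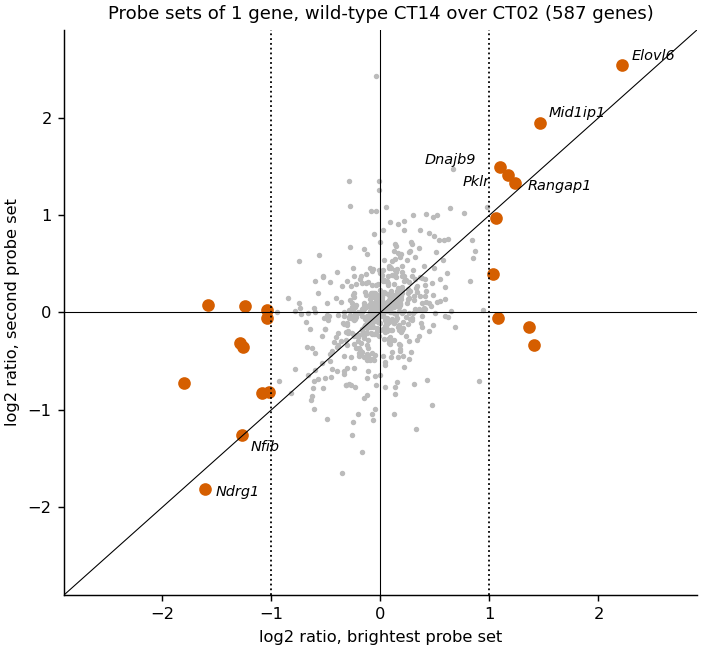
The log2 ratio of CT14 over CT02 in wild-type liver for the brightest probe set of a gene (x axis) and its second probe set (y axis), for the 587 genes with both above the floor; orange points are the 21 genes 2-fold apart on the brightest, and the diagonal marks equal ratios. The 7 named genes are past 2-fold on both, and 6 orange points lie close to the horizontal line at 0, on its far side.

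Set beside the mutant arrays, the CT14 array was the one that more often stood apart. Of the 120 genes at least 2-fold higher at CT14, 54 (45.0%) had the CT14 value alone outside the range of the 4 mutant arrays, 21 (17.5%) the CT02 value alone, 27 both and 18 neither. Of the 101 lower genes, 30 had CT14 alone outside (29.7%), 20 CT02 alone, 24 both and 27 neither. Among the 4623 genes less than 2-fold apart, 16.1% had CT14 alone outside, 13.04% CT02 alone and 56.7% neither. Genes picked for a 2-fold difference on these same arrays lie outside more readily, so the gap to the rest is no finding. Values under the floor were raised to it, and could lie outside only where every mutant value was above it. This touched CT02 in 33 of the higher genes and CT14 in 30 of the lower ones. Creld2, Hspa1b, Srm and Fkbp5 belonged to the first kind, with CT02 inside the mutant range. Bhlhe40 was of the second kind, its CT02 value of 1111 lying below every mutant array (2133 to 8924) and its CT14 value within them. Per2 and Lpin1 (688 and 4546) were outside at both times.

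**Figure D5:**
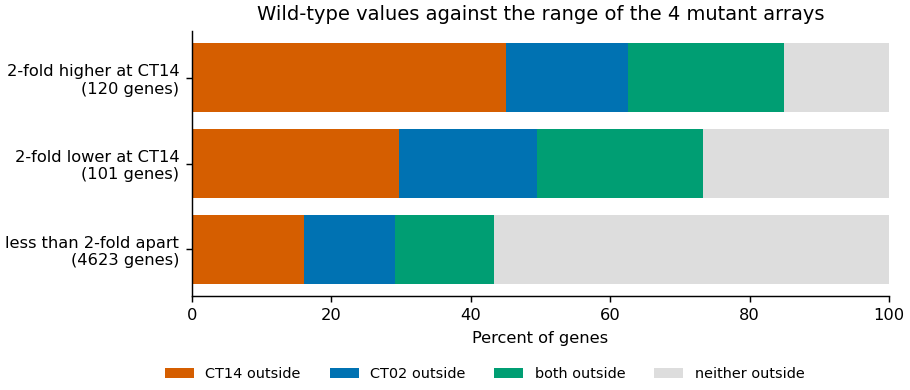
Percent of genes (x axis) whose wild-type CT14 value alone, CT02 value alone, both or neither lay outside the range of the 4 mutant arrays, for genes at least 2-fold higher at CT14, at least 2-fold lower, or less than 2-fold apart (y axis, number of genes in brackets). CT14 alone was outside in 45.0% of the higher and 29.7% of the lower genes, against 16.1% of the rest. The higher and lower genes were picked on the same wild-type arrays, so the gap to the rest is no finding.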

How the data were processed

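The files deposited by the authors hold an intensity for each probe set on each array, in whole numbers that can be negative, as the values themselves show. Of the software, any background step and the pooling of mice the sources used here say nothing. Arrays were put on a common scale by the median, over 6065 probe sets, of each intensity relative to that probe set's geometric mean on the 6 arrays (log2 offsets of 0.12 and 0.15 for wild type at CT02 and CT14). The pooled median, 606 scaled units, served as a floor to which lower values were raised ahead of the log2 step. Of 12488 probe sets, 10855 had 1 gene symbol, 396 several and 1237 none; 66 are controls and were left out, 22 of them among those with 1 symbol, and 10817 of the rest matched a RefSeq table (GRCm38.p6) by gene number. A gene was read on its probe set of highest mean, and kept where its mean over the 6 arrays reached the floor. With 1 array a group no test and no error can be given, so log2 ratios of CT14 over CT02, counts past 2-fold and list medians are descriptions, and depth has no count here: signal over background limits dim genes.

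Named genes were the 4 markers and both clock lists, the 20 largest log2 ratios in each direction above the floor, the 10 largest bounds in each direction, and up to 4 members in each direction of a list described; other list members are given with their list, and exceptions are named as such. The 59 gene lists (1671 symbols with repeats, 1298 on the array), the rules and the alternatives were chosen with earlier results of these data known. The alternatives were the deposited values unscaled, quantile normalization, lowess correction (span 0.3), settings from the 2 wild-type arrays alone, other floors and filters, the mean over probe sets, probe sets without a letter in the name alone, and thresholds of 1.5-fold and 3-fold. Python 3.11.15, pandas 2.3.3, numpy 2.4.6, statsmodels 0.14.6 and matplotlib 3.10.9 were used, and the procedure was tested on simulated data.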

Additional observations from a re-analysis of the deposited data

Results flagged for a closer look

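These genes were at least 2-fold apart one way in wild type and at least 2-fold apart the other way within a mutant; the differences between genotypes were not tested, since each rests on 1 array a group. Against the Clock mutant, genes higher at CT14 in wild type and lower there were Fasn (log2 ratio 1.80 in wild type and -1.78 in the mutant), Elovl6 (2.22 and -1.69), Pklr (1.17 and -1.15), Lss (1.64 and -1.63) and Mvd (1.31 and -1.63) among lipid genes. Creld2 (2.16 and -1.22), Dnajb11 (1.24 and -1.13) and Gmppb (2.25 and -1.53) did the same among ER genes. The others were Abcc5 (1.72 and -1.67), Cyp3a16 (1.74 and -2.81) and Saa3 (1.07 and -1.11). With a value below the floor, the sizes for Mvd, Abcc5 and Cyp3a16 in wild type are lower bounds. So are those for Mvd, Gmppb and Cyp3a16 in the Clock mutant. Lower in wild type and higher in the Clock mutant were Ceacam1 (-1.02 and 2.07), Cyp4a14 (-1.46 and 1.25), Cpeb2 (-1.39 and 1.0) and Mgst3 (-1.17 and 1.0).

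Against the Cry-deficient arrays, Igfbp1 read 9554 and 188 in wild type (log2 ratio -3.98, its size a lower bound) and had a log2 ratio of 2.67. Aqp8 (-2.01 and 1.15), Cdh3 (-1.90 and 1.62, both lower bounds in size), Ceacam1 (-1.02 and 1.57) and Ccng2 (-1.16 and 1.02) also ran from lower to higher. Abcc5 (1.72 and -1.08), G0s2 (1.62 and -1.33), Hspa1b (2.19 and -1.13) and Saa3 (1.07 and -1.02) ran from higher to lower. Of 647 kept probe sets with no single gene symbol, which entered no comparison, 20 were past 2-fold between the wild-type arrays (3.09%), 13 higher and 7 lower, beside 4.56% of the named genes.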

How the results depend on the processing

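The direction of the list medians discussed held under all 10 alternatives of scaling, floor, filter and probe set for the unfolded protein response (0.41 to 0.64), translocation and ER to Golgi transport (0.22 to 0.27), heat shock (0.20 to 0.33), ribosome biogenesis (0.29 to 0.47), tRNA synthetases (0.30 to 0.35), polyamines (0.37 to 0.53), cell junctions (-0.41 to -0.27) and sinusoidal endothelium (-0.70 to -0.32). The morning clock median turned from -0.65 to 0.57 with a filter at the 75th percentile, which left Cry1 alone. Counts of genes 2-fold higher, lower and apart stayed within 1.5 times 120, 101 and 221 under each scaling and each choice of probe set. They moved to 519, 489 and 1008 with a floor at the 25th percentile, to 66, 51 and 117 with one at the 60th, to 43, 30 and 73 with a filter at the 75th percentile, to 29, 18 and 47 at 3-fold and to 370, 335 and 705 at 1.5-fold. All 221 genes were past 2-fold with the lower floor, and 214 were so without scaling, which put the median gene at 0.02. Of 99 named genes past 2-fold, 69 were so under every alternative that kept them, and none turned its sign. No paired analysis was possible because each group has 1 array. How 1 mouse or pool differs from another cannot be read from these arrays, and dim genes rest on the choice of floor.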

Other observations

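Several liver regulators outside the groups above were apart. Foxa3, a pioneer factor of hepatocyte genes, read 2353 and 5175 at CT02 and CT14, and Hnf4a, which maintains hepatocyte identity, 4042 and 6563 (log2 ratio 0.70). Esr1, the estrogen receptor, read 1282 at CT02 and was below the floor at CT14, at least 2.115-fold lower, with 3 other probe sets under the floor at both times. The 27 kept receptor and transcription factor genes had a median of -0.01, with 13 higher and 14 lower. In 9 of them the wild-type CT02 value was the highest of all 6 arrays, a share of 33.3%, which was 11.7% over all kept genes.

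Lysosome and autophagy genes leaned lower at CT14 by small amounts. Of 36 kept genes 12 were higher and 24 lower, with a median of -0.09. None was past 2-fold, beside 4.56% of all kept genes. Gaa, the acid glucosidase, read 5133 and 3062 and Npc1, a cholesterol exporter of the lysosome, 6691 and 4354, while Bnip3 read 2503 and 4993. Slc1a2, a glutamate carrier of hepatocytes beside the central vein, read 1076 and 2696, whereas Glul, the glutamine synthetase of the same cells, was level at 15048 and 15059. Cirbp, a cold-inducible RNA-binding protein gene, read 4609 and 2577, the CT14 value below the mutant range of 2938 to 5505.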
